A study of Homo sapiens with 9 samples.

Results

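Immediate-early genes and negative feedback regulators of the mitogen-activated protein kinase (MAPK) pathway were followed across 9 Illumina arrays of KYSE30, a human cell line established from an esophageal squamous cell carcinoma. They are 9 probes of 8 genes, EGR1, FOS, JUN, IER3, PHLDA1, DUSP1, DUSP6 and SPRY2, listed by probe number, of 47317 probes on each array. The cells were transfected with miR-32, miR-455, miR-181a, miR-181b, a miRNA combination, an siRNA labelled for PIK3R1 (siPIK3R1), one labelled for PIK3R3 (siPIK3R3), an siRNA combination or a negative control, and RNA was taken on day 3. PIK3R1 and PIK3R3 encode regulatory subunits of phosphoinositide 3-kinase (PI3K), and the series asks how expression changes when these microRNAs are raised or PI3K is knocked down. Each group had 1 array, all groups share the line and the transfection reagent, and the sources used here give neither the arm of each microRNA nor the doses nor what the combinations hold. With 1 array per group no difference has a replicate error and none was tested, so that a difference may be one between cultures. The deposited tables give probe numbers alone, so the gene names are those of the list that defined the probes, and neither the knockdown of PIK3R1 and PIK3R3 nor the squamous identity of the cells was checked here.

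Growth factor receptors signal through RAS, RAF and MEK to the kinase ERK, which phosphorylates ELK1 and related partners of serum response factor. Serum response factor binds CArG boxes, and through it genes such as EGR1 and FOS are transcribed within minutes of stimulation without new protein synthesis, hence immediate-early. EGR1 is a zinc finger transcription factor, and FOS and JUN form the AP-1 transcription factor. ERK activity also raises its own inhibitors, among them the phosphatases DUSP1 and DUSP6 and the adaptor SPRY2.

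The sequences of 3 promoters and 2 microRNAs are shown first. The promoters of 7 of the 8 genes were found in the RefSeq table of build GRCh38.p14, and IER3 was not. The windows of EGR1, JUN and PHLDA1, from 250 bases before to 50 bases after the transcription start, are given because EGR1 is the textbook target of serum response factor, JUN was the immediate-early transcription factor that differed most among the arrays, and PHLDA1 was the gene that differed most of all. Capitals mark the CArG box, the TATA box with the letters TATAAA, the GC box with the letters GGGCGG and the core of the cyclic AMP response element with the letters TGACG, on either strand.
EGR1, chr5:138465229-138465528, plus strand: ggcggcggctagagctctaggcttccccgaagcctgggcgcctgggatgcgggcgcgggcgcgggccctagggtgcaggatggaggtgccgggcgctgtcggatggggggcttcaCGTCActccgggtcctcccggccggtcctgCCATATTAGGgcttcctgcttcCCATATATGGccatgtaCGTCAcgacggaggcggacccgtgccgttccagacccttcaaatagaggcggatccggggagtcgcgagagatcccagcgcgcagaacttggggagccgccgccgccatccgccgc
JUN, chr1:58783998-58784297, minus strand: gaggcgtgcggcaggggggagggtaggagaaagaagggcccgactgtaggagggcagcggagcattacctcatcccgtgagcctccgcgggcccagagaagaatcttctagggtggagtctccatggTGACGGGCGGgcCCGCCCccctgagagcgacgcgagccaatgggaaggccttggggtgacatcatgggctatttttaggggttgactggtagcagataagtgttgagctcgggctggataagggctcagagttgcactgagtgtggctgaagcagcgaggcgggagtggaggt
PHLDA1, chr12:76031727-76032026, minus strand: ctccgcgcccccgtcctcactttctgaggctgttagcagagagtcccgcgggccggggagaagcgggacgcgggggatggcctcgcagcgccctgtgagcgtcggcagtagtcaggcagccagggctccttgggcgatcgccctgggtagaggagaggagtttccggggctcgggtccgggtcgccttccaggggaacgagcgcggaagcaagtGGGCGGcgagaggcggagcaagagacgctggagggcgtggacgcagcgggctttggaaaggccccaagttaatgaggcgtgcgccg

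The EGR1 window holds 2 CArG boxes, at -105 and -83 from the start, and TGACG at -135 and -66. A CArG box occurs in 1.30% of the 34943 promoter windows of this length, and TGACG in 24.5%. Among the 7 genes the CArG box was found at EGR1 alone, and the FOS window held none. The JUN window holds TGACG at -123, where it overlaps the first of 2 GC boxes, and the letters CCAAT at -87. In the PHLDA1 window, of the motifs searched, only a GC box was found, at -36, a motif of 44.9% of windows. The TATA box occurs in 11.6% of windows and was found at FOS and DUSP1 among the 7 genes. The full cyclic AMP response element, TGACGTCA, which contains that core on both strands, occurs in 1.84% and was found at DUSP1. The letters of an AP-1 site (TGANTCA, in 7.72% of windows) and of an ETS site (CCGGAAGT, in 4.11%) were found in none of the windows of the 7 genes, and CCAAT, in 34.6% of windows, was found at JUN and DUSP6. These are matches of letters in a window, not measured binding. Variants of the letters were not searched, so an absence here does not mean that a window lacks such a site. The JUN window, for instance, holds TGACATCA, which the AP-1 letters used here cannot match.

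The microRNAs miR-181a and miR-181b are shown because their arrays set JUN and IER3 furthest apart among the microRNA transfections. For IER3, miR-32 lay as far below miR-181b as miR-181a did, both at a normalized log2 level of 9.72. The 5p arms of miR-181a and miR-181b from RefSeq are printed with the seed (bases 2 to 8) in capitals. The labels do not say which arm was transfected.
hsa-miR-181a-5p: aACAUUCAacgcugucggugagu
hsa-miR-181b-5p: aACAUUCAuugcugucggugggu
They share the seed and differ at 3 of 23 bases, A9U, C10U and A21G, counted from the 5′ end, with the base of miR-181a first.

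Signal and detection bear on each value below. The mean raw signal lay between 343 and 468 on 7 arrays and was lower on the miRNA combination (270.3) and the siRNA combination (223), and the normalization brings all arrays to 1 distribution of levels. The detection p of a probe is the share of negative control probes at least as bright, and a probe was taken as detected under 0.01. Of the 9 probes, 8 were detected on all 9 arrays. For 7 of them the detection p was listed as 0 throughout, and for DUSP6 ILMN_2396020 it was 0 on 8 arrays and 0.00519 in the negative control. The other DUSP6 probe, ILMN_1677466, had raw signals of 50.5 to 66.3 and detection p-values of 0.517 to 0.822, was detected on no array and enters no comparison. The pair of DUSP6 probes thus disagree, and DUSP6 below means ILMN_2396020. Levels are log2 intensities after background correction and quantile normalization of the 9 arrays, and differences between arrays are log2 differences of these levels.

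**Figure D1:**
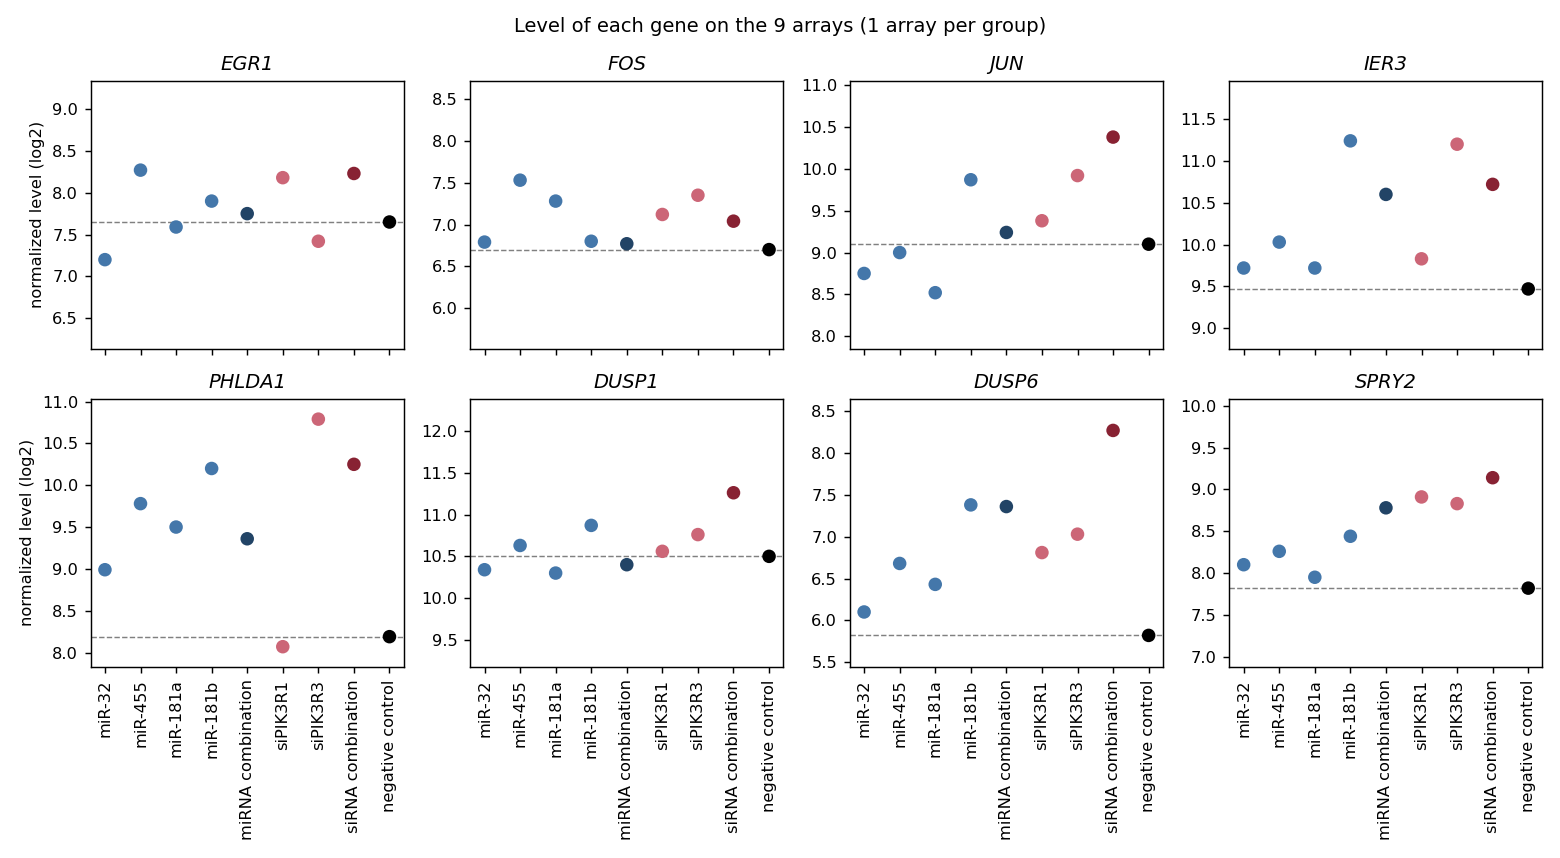
Normalized level (log2, y axis) of the 8 detected probes on each of the 9 arrays (x axis), 1 point per array, with the level of the negative control as a dashed line and the same height of axis in every panel. PHLDA1 spans 2.72 and DUSP6 2.45 on the log2 scale, while FOS spans 0.84 and DUSP1 0.96.

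The 8 genes differed widely in how much they varied. PHLDA1 spanned 6.59-fold between its highest and lowest array, DUSP6 5.48-fold, JUN 3.62-fold and IER3 3.41-fold. SPRY2 spanned 2.49-fold, EGR1 2.10-fold, DUSP1 1.94-fold and FOS 1.79-fold. Among the 12202 probes detected on all arrays the median span was 0.90 on the log2 scale, and 99.1% of them spanned less than PHLDA1, against 44.0% for FOS. The negative control was the lowest of the 9 arrays for FOS, IER3, DUSP6 and SPRY2, and second lowest for PHLDA1. Since all 8 comparisons with the control share this 1 array, a low control value raises all of them together.

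PHLDA1, a growth-factor-induced protein with a pleckstrin homology-like domain (ILMN_1687978), was highest with siPIK3R3. Its raw signal was 718 with miR-32, 1223 with miR-455, 898 with miR-181a, 1195 with miR-181b, 530.2 with the miRNA combination, 300.2 with siPIK3R1, 1960.0 with siPIK3R3, 727 with the siRNA combination and 381 with the negative control. The control and siPIK3R1 arrays thus formed a low pair, with every other array above them. The normalized levels in the same order were 8.99, 9.78, 9.50, 10.20, 9.36, 8.07, 10.79, 10.25 and 8.19. With the arrays sorted by level, the largest step, 0.81, lay between miR-32 and the negative control.

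IER3, an early response gene whose protein acts in cell survival and ERK signaling (ILMN_1682717), was high on 4 arrays. The raw signal was 1139 with miR-32, 1441 with miR-455, 1038 with miR-181a, 2322 with miR-181b, 1172 with the miRNA combination, 870.4 with siPIK3R1, 2626 with siPIK3R3, 1003 with the siRNA combination and 835 with the negative control. The normalized levels in that order were 9.72, 10.03, 9.72, 11.24, 10.60, 9.83, 11.20, 10.72 and 9.47. The miR-181b and siPIK3R3 arrays lay 0.04 apart at the top, followed by both combinations, and the other 5 arrays lay at least 0.57 below these 4. Of the other members, IER3 came closest to the pattern of PHLDA1, with a root mean square difference of 0.51 after centring each gene on its mean over the 9 arrays. It ranked as the 24th of 12201 probes by this measure, and Pearson's r was 0.82 over 9 arrays that were normalized together. The rank is not mutual. Seen from IER3, PHLDA1 ranked 536th, and JUN was the closest member, at 0.41 and rank 83. Other pairs of members lay closer, such as JUN and DUSP1, 0.32 apart with an r of 0.92.

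JUN (ILMN_1806023) had raw signals of 620.4 with miR-32, 749 with miR-455, 494 with miR-181a, 957 with miR-181b, 489.7 with the miRNA combination, 651 with siPIK3R1, 1092 with siPIK3R3, 791 with the siRNA combination and 664 with the negative control. Its normalized levels were 8.75, 9.0, 8.52, 9.87, 9.24, 9.38, 9.92, 10.38 and 9.10 in that order. The siRNA combination, siPIK3R3 and miR-181b stood at the top, with a step of 0.48 below miR-181b, and miR-181a was lowest. EGR1 (ILMN_1762899) had raw signals of 249 with miR-32, 484 with miR-455, 289.96 with miR-181a, 293 with miR-181b, 203 with the miRNA combination, 319 with siPIK3R1, 243 with siPIK3R3, 206 with the siRNA combination and 287 with the negative control. After normalization EGR1 was 8.27 in miR-455, 8.23 in the siRNA combination and 8.18 in siPIK3R1, followed by a step of 0.28 to the other 6 arrays, and was lowest in miR-32 at 7.20. FOS (ILMN_1669523) was also highest in miR-455, with a raw signal of 316 and a level of 7.53, against a raw signal of 178 and a level of 6.70 in the negative control. The other 7 FOS levels lay between 6.77 in the miRNA combination and 7.35 in siPIK3R3. EGR1 and FOS therefore shared their highest array, but siPIK3R1 stood above siPIK3R3 for EGR1 and below it for FOS.

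Of the feedback genes, DUSP6, a phosphatase of the cytoplasm that acts on ERK, varied most. Its raw signal was 145 with miR-32, 202 with miR-455, 163 with miR-181a, 223 with miR-181b, 166 with the miRNA combination, 169 with siPIK3R1, 200.5 with siPIK3R3, 211 with the siRNA combination and 126 with the negative control. These are close to background, so the correction widens them to normalized levels of 6.10, 6.68, 6.43, 7.38, 7.36, 6.81, 7.03, 8.27 and 5.82 in the same order. The siRNA combination stood alone at the top by 0.90. DUSP1 (ILMN_1781285), a phosphatase of the nucleus that acts on p38, JNK and ERK, was bright and even. Its raw signals ran from 1026 in the miRNA combination to 2137 in miR-455. Its levels ran from 10.30 in miR-181a to 11.26 in the siRNA combination, which was 0.39 above the next array. In raw signal the siRNA combination (1470) lay below the negative control (1653), so it was highest for DUSP1 only after normalization. SPRY2 (ILMN_2089329), which restrains signaling from receptor kinases to RAS, had levels of 8.10 with miR-32, 8.26 with miR-455, 7.95 with miR-181a, 8.44 with miR-181b, 8.78 with the miRNA combination, 8.91 with siPIK3R1, 8.83 with siPIK3R3, 9.14 with the siRNA combination and 7.82 with the negative control. For SPRY2 the 4 arrays of both combinations and both siRNAs stood above the rest, with a step of 0.34 below them. Its raw signal was 545.6 in siPIK3R3 and 313 in the negative control, the highest and the lowest of the 9. In raw signal the miRNA combination (363) and the siRNA combination (355) lay below miR-455 (479), miR-32 (417) and miR-181b (392). The combinations thus stood above these arrays for SPRY2 only after normalization.

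The siPIK3R3 transfection stood 2-fold or more above the negative control for 4 of the 8 genes and 2-fold below it for none. Of all probes compared, 3.53% were 2-fold higher and 1.61% lower. PHLDA1 was 6.07-fold higher, with 92 of 15918 probes above it, and IER3 3.33-fold higher, with 216 above. DUSP6 was 2.31-fold higher, SPRY2 2.003-fold, which is just at the threshold, and JUN 1.76-fold. EGR1 was the exception, at -0.23 on the log2 scale. The median difference of the 8 genes was 0.91, against -0.03 for all probes compared. DUSP6 and SPRY2 were under 2-fold in 3 alternatives. These left out the background correction, used an offset of 50 or put the median of the other 8 arrays in place of the control. PHLDA1 and IER3 stayed above 2-fold in every alternative tried, of which the changes of the detection filter and the 1.5-fold threshold could not remove a call.

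In the siPIK3R1 transfection, SPRY2 alone passed 2-fold, at 2.12-fold higher, and no gene was 2-fold lower, against 2.97% of all probes higher and 1.88% lower. DUSP6 stood at 1.98-fold and EGR1 at 1.44-fold. PHLDA1 differed by -0.12 on the log2 scale. The median of the 8 genes was 0.39, against -0.01 for all probes. SPRY2 was under 2-fold without background correction and with an offset of 50. Against the median of the other 8 arrays, SPRY2 differed by 0.56, and PHLDA1 was the gene past 2-fold, at -1.57.

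**Figure D2:**
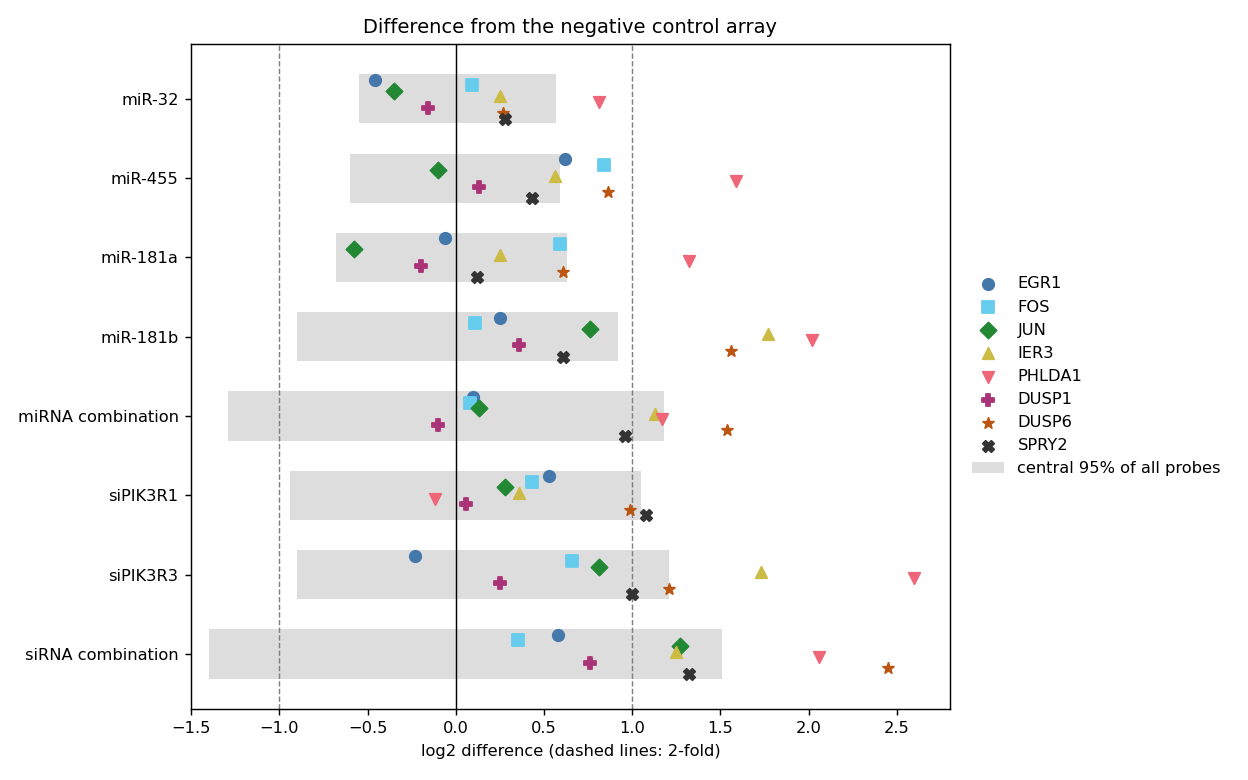
Log2 difference of each gene from the negative control (x axis) in each of the 8 transfections (y axis), 1 symbol per gene. Grey bars cover the central 95% of all probes compared in that transfection, and dashed lines mark 2-fold. PHLDA1 lies right of the bar in 6 of the 8 rows, inside it in the miRNA combination and near 0 in siPIK3R1.

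The 2 siRNAs were also set against each other, which leaves out the control. PHLDA1 was 6.59-fold higher in siPIK3R3 than in siPIK3R1, with 23 of 15829 probes above it, and IER3 was 2.59-fold higher. No gene was 2-fold lower, and 5.84% of all probes were 2-fold higher and 6.06% lower. EGR1 leaned the other way, at -0.76. DUSP6 and SPRY2 differed by 0.22 and -0.08, and DUSP1 by 0.20. PHLDA1 and IER3 were thus the 2 genes that parted the siRNA arrays, and both stayed past 2-fold in all alternatives tried.

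The siRNA combination stood 2-fold or more above the negative control for 5 of the 8 genes and below it for none, against 6.53% of all probes higher and 7.01% lower. DUSP6 was 5.48-fold higher and PHLDA1 4.18-fold. SPRY2 was 2.49-fold, JUN 2.42-fold and IER3 2.37-fold higher. DUSP1 reached 1.69-fold, EGR1 1.49-fold and FOS 1.27-fold, so that all 8 lay above the control, as did 49.2% of all probes compared. The central 95% of all probes ran from -1.40 to 1.51 here, and only PHLDA1 and DUSP6 lay outside it. The array is the dimmest of the 9, and in raw signal the combination stood at 1.68 times the control for DUSP6, 1.91 times for PHLDA1 and 0.889 times for DUSP1. The raw ratio was 1.20 for IER3, 1.19 for JUN, 1.13 for SPRY2, 0.718 for EGR1 and 0.654 for FOS. EGR1, FOS and DUSP1 thus lay above the control only after normalization. Without background correction the log2 difference of DUSP6 was 1.66, against 2.45 with it. Against the median of the other 8 arrays, JUN (1.21) and DUSP6 (1.53) stayed past 2-fold, and PHLDA1 (0.82), SPRY2 (0.79) and IER3 (0.78) did not. Of the 8 genes, 5 (EGR1, JUN, DUSP1, DUSP6 and SPRY2) lay above both single siRNA arrays, FOS lay below both, and IER3 and PHLDA1 lay between them. Of the 12500 probes detected on these 3 arrays and the control, 31.1% lay above both single siRNA arrays, 31.1% below both and 37.7% between them.

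In the miRNA combination, DUSP6 was 2.91-fold, PHLDA1 2.25-fold and IER3 2.19-fold higher than in the negative control. These were the 3 genes past 2-fold, and none was 2-fold lower. Among all probes 4.32% were higher and 5.64% lower. SPRY2 was at 1.94-fold. EGR1, FOS, JUN and DUSP1 lay within 0.13 of the control on the log2 scale. Against the median of the other 8 arrays no gene was 2-fold away, and PHLDA1 was at -0.28. DUSP6, which rests on a dim probe, was at 0.95 without background correction, against 1.54 with it. This array is also dim, and its raw ratio to the control was 1.40 for IER3, 1.39 for PHLDA1 and 1.32 for DUSP6. It was 1.16 for SPRY2, 0.738 for JUN, 0.714 for FOS, 0.708 for EGR1 and 0.620 for DUSP1. Of the 8 genes, 6 lay within the range of the 4 single microRNA arrays, SPRY2 lay above it and FOS just below it. Of the 12843 probes detected on these 5 arrays and the control, 37.1% lay within that range, 30.6% above it and 32.3% below it.

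Between the combinations, JUN was 2.21-fold higher in the siRNA than in the miRNA combination, and no gene was 2-fold lower. Here 1.78% of all probes were higher by 2-fold and 0.741% lower. DUSP6 differed by 0.91, PHLDA1 by 0.89 and DUSP1 by 0.86, all close to the upper end of the central 95% of probes at 0.87. All 8 genes were higher in the siRNA combination, with a median of 0.67, against -0.01 for all probes compared, of which 48.8% were higher. IER3, at 0.12, was nearly level.

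In miR-181b, PHLDA1 was 4.05-fold, IER3 3.41-fold and DUSP6 2.94-fold higher than in the negative control. No other gene passed 2-fold in either direction, and 1.95% of all probes were higher and 1.56% lower. JUN reached 0.76 on the log2 scale and SPRY2 0.61. Against the median of the other 8 arrays, IER3 alone stayed past 2-fold, at 1.31. DUSP6 was at 0.96 without background correction, against 1.56 with it.

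In miR-181a, PHLDA1 alone was 2-fold higher than in the control, at 2.49-fold with 17 of 15871 probes above it, and none was lower. The background was 0.284% of all probes higher and 0.529% lower. JUN stood at -0.58, FOS at 0.59 and IER3 at 0.25. Against the median of the other 8 arrays PHLDA1 was at -0.07.

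Set against each other, miR-181a stood 2.86-fold below miR-181b for IER3 and 2.55-fold below it for JUN, the 2 genes past 2-fold. Among all probes 3.16% were 2-fold lower in miR-181a and 2.01% higher. DUSP6 differed by -0.94 and PHLDA1 by -0.70, and 7 of the 8 genes were lower in miR-181a, FOS excepted at 0.48, while 51.7% of all probes compared were higher in miR-181a. The median of the 8 genes was -0.63, against 0.02 for all probes. The calls of IER3 and JUN held under all alternatives tried, from -1.54 to -1.45 for IER3 and from -1.38 to -1.22 for JUN. Among these, the changes of the detection filter and the 1.5-fold threshold could not remove a call. The median of the other 8 arrays was not used as reference for this pair.

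**Figure D3:**
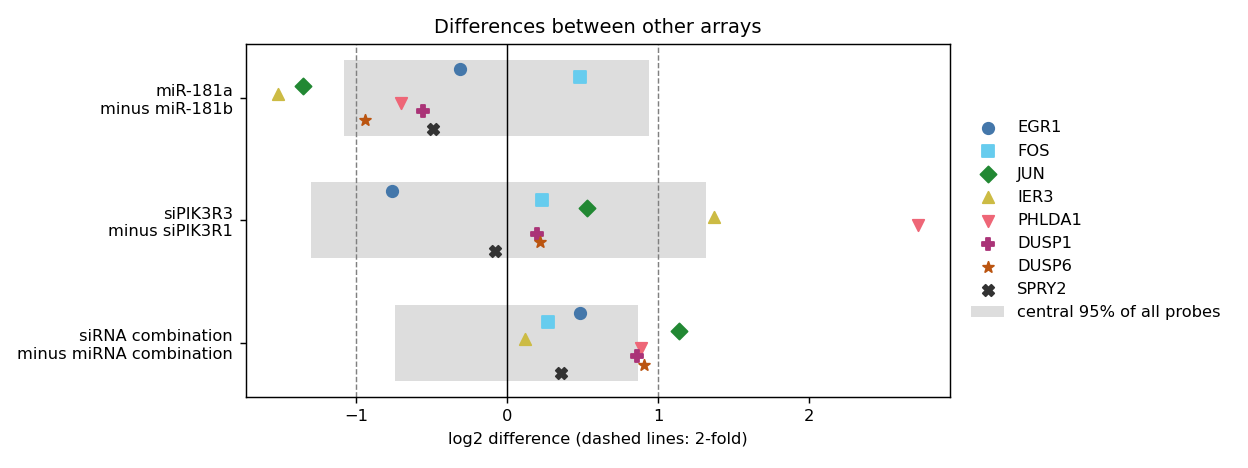
Log2 difference of each gene (x axis) for miR-181a minus miR-181b, siPIK3R3 minus siPIK3R1 and the siRNA minus the miRNA combination (y axis), 1 symbol per gene. Grey bars cover the central 95% of all probes compared and dashed lines mark 2-fold. PHLDA1 at 2.72 lies far right for the siRNAs, and JUN and IER3 lie left of the bar for the miR-181 pair.

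In miR-455, PHLDA1 was 3.01-fold higher than in the negative control, with 34 of 16096 probes above it, and was the 1 gene past 2-fold, against 0.596% of all probes higher and 0.186% lower. The array was close to the control over all probes, with the central 95% between -0.60 and 0.59. DUSP6 (0.86), FOS (0.84) and EGR1 (0.62) also lay beyond that range, and IER3 at 0.56 just within it. In the authors' processed values FOS (1.02) and DUSP6 (1.18) passed 2-fold too. Against the median of the other 8 arrays no gene did, with PHLDA1 at 0.35. In miR-32, 0 of the 8 genes were 2-fold away, against 0.505% of all probes higher and 0.164% lower. PHLDA1 was nearest at 1.75-fold, above 99.1% of the probes compared, and EGR1 and JUN differed by -0.46 and -0.35. With the median of the other 8 arrays in place of the control, PHLDA1 and all the other genes lay below the reference in miR-32.

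Across the 8 comparisons with the control, PHLDA1 passed 2-fold in 6, DUSP6 in 4, IER3 in 4, SPRY2 in 3, JUN in 1, and EGR1, FOS and DUSP1 in 0, always on the higher side. These comparisons share the control array and are not independent of each other. The share of all probes that pass 2-fold as often was not computed, so these tallies have no background beside them. Against the median of the other 8 arrays, PHLDA1 stayed 2-fold higher in siPIK3R3 alone, at 1.36 on the log2 scale. By the measure used above for IER3, the probes most like PHLDA1 over the 9 arrays were ILMN_2368530 and ILMN_1746465, each 0.26 away, and 22 of 12201 probes lay within 0.5. The files do not name their genes.

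**Figure D4:**
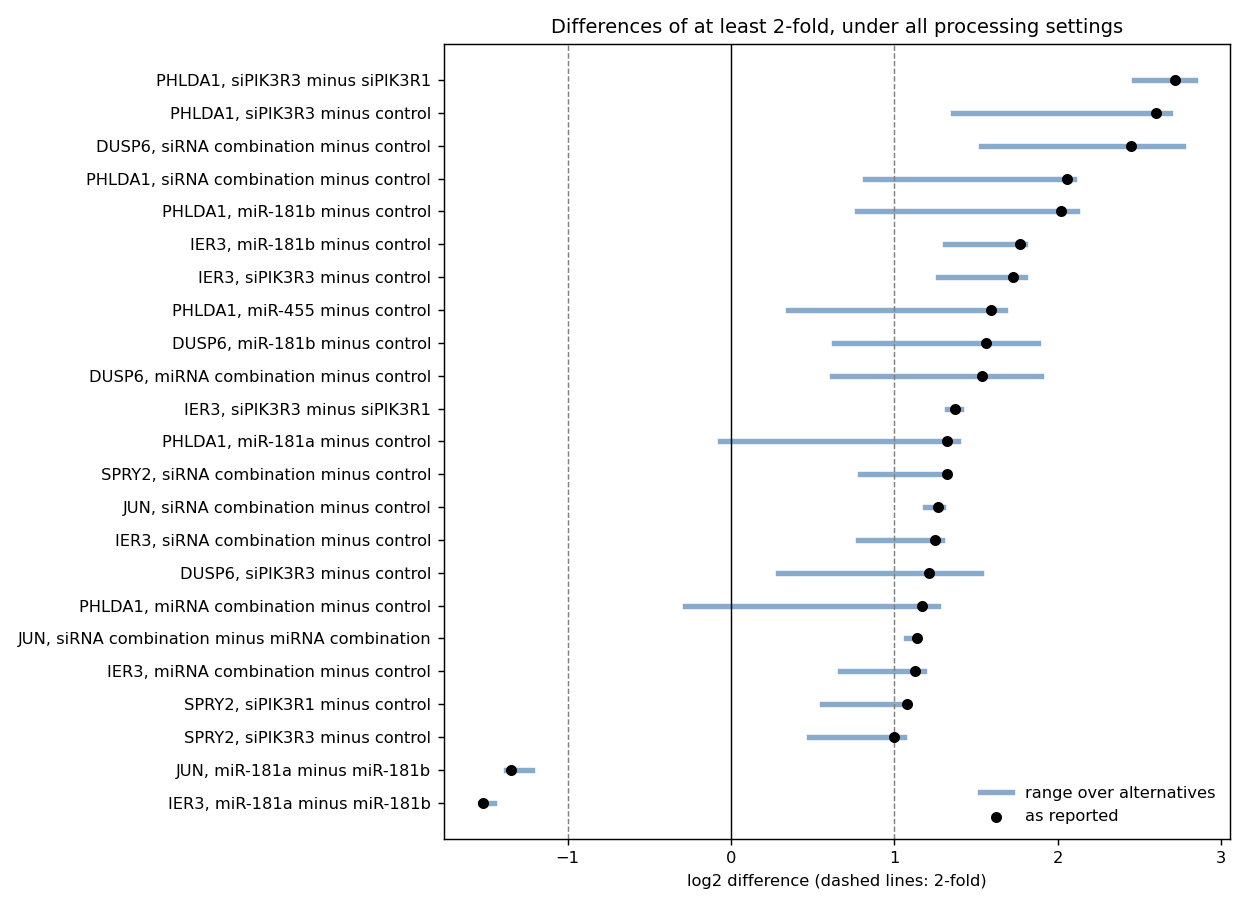
The 23 differences of at least 2-fold (y axis) as log2 differences (x axis), with points for the reported value and bars for the range over the alternative settings. Bars that cross a dashed line lose the 2-fold call under at least 1 setting, and the bars of PHLDA1 in miR-181a and in the miRNA combination reach below 0 where the median of the other 8 arrays replaces the control.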

How the data were processed

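KYSE30 RNA from 9 transfections, 1 array per group, was labeled as biotinylated cRNA for Illumina arrays, per the labels' protocols. Groups came from the sample titles. The deposited raw table holds, per its file headers, an intensity on a linear scale for each probe and array. Beside it stands a deposited detection p-value. Processed intensity values, deposited by the authors in another table, are a straight line of the raw signal of each array with background subtracted and an equal mean over arrays. The sources used here name neither the scanner software nor the authors' steps.

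From the raw table, neqc (limma 3.58.1, R 4.3.3, offset 16) gave background-corrected, quantile normalized log2 levels of all 9 arrays together. Differences were taken with Python 3.11.15, numpy 2.4.6 and pandas 2.3.3 over probes with a detection p under 0.01 on at least 1 of the arrays compared. On an array where a probe was not detected, the higher of its own value and the lowest detected value was used. A log2 difference of at least 1 replaced a test, because each group has 1 array. The calculation was tested on simulated data. The number of arrays limits the precision.

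Members and lists were chosen with earlier results of these data known. The 7 lists of pathway and interferon genes and the cell type markers could not be used, because no table here pairs probes with genes. The rule for named genes was applied to the member probes. Likeness to a member was measured for those with a span of at least 1, and IDs are printed for PHLDA1 only. The 3 comparisons between arrays other than the control were added after the data were seen.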

Additional observations from a re-analysis of the deposited data

How the results depend on the processing

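Of 93 counts of genes past 2-fold under alternative settings, 72 stayed within 1.5 times the reported count. The 72 include the settings with a detection p under 0.05 and with no detection filter. These leave the values of the 8 probes unchanged by design, because the probes are detected on every array, and say nothing about stability. With a 1.5-fold threshold the counts were 1 with miR-32 and 4 with miR-455, against 4.20% and 5.29% of all probes. They were 3 with miR-181a and 5 with miR-181b, against 7.37% and 17% of all probes. In siPIK3R1 the count was 2 of 8, against 23.7% of all probes, which is near that share. It was 4 for miR-181a against miR-181b (21.4% of all probes) and 4 for the siRNA against the miRNA combination (10.7%). With the median of the other 8 arrays as reference the counts were 0 in miR-455, 0 in miR-181a and 1 in miR-181b. Of all probes, 0.221%, 1.28% and 0.926% passed in these. The counts were 2 in siPIK3R3, 0 in the miRNA combination and 2 in the siRNA combination, against 3.17%, 4.37% and 7.29% of all probes. Of the 2-fold calls of PHLDA1, those in miR-181a (-0.07) and in the miRNA combination (-0.28) changed sign in that setting. PHLDA1 also changed sign there in miR-32, where it was not a 2-fold call. Other genes short of a 2-fold call changed sign there too, among them DUSP6 and IER3 in miR-455. The count of 1 for siPIK3R1 there is PHLDA1, lower, in place of SPRY2, against 2.83% of all probes. In the authors' processed values the counts were 3 in miR-455 and 2 in siPIK3R1, against 1.37% and 6.64% of all probes. Without background correction, and likewise with an offset of 50, they were 0 in siPIK3R1 and 2 in siPIK3R3. Of all probes, 2.05% passed in siPIK3R1 and 2.9% in siPIK3R3 without the correction, and 2.72% and 3.51% with the offset. With median scaling, and with normalization without the combinations, siPIK3R1 had 2, against 4.89% and 5.02% of all probes. The control is the lowest or second lowest array for 5 of the genes. The causes of these shifts were not tested. No paired analysis was possible because there is 1 array in every group. The alternatives for other ERK output genes and for the probe per gene were not run, because probes have no gene names here.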
